A study of Danio rerio with 20 samples.

Results

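The liver genes of the complement cascade were described in male zebrafish by RNA sequencing. A list of 36 zebrafish complement names was matched by symbol to the deposited count table, and 34 of them gave 35 genes among the 32105 of the table, since the name c6 met both c6.1 and c6.2. The names cfi and c4bpa were not matched and are not analysed here. The genes fall into a classical arm (5 genes), a lectin arm (3), an alternative arm (3), C3 (8), the terminal pathway (9) and soluble regulators (7). The fish were male, of the strain AB JxTu, aged 1 or 3 years, and had either no exercise or exercise in a swim tunnel, where they swim against flowing water. Each of the 4 groups held 5 liver libraries, and the labels name no transgene, mutation or drug in any of them. They do not say whether each library came from a separate fish, so a p-value here reflects the spread among libraries, part of which may be technical.

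Complement is a cascade of plasma proteins, mostly secreted by hepatocytes, that marks and lyses microbes and draws in leukocytes. Antibody-bound C1 starts the classical arm, sugar-binding lectins with their proteases start the lectin arm, and the alternative arm turns over slowly by itself and amplifies the others. All arms meet at the cleavage of C3, after which the terminal proteins assemble a pore in the target membrane, and regulators such as factor H and the C1 inhibitor hold the cascade back on host cells. Many of its genes are acute-phase genes of the liver, and zebrafish carry several copies of C3 and of factor H-like genes.

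Library totals were 33046127 to 49579666 counts. All 16 measured hepatocyte markers were detected in every library, with a summed level of 102500 to 246100 plain CPM (counts scaled to the library total only, as CPM). Transcripts of other organs varied. FABP2, the intestinal fatty acid binding protein, exceeded 100 plain CPM in 7 libraries, here called libraries with intestinal reads, and ranged from 0.0969 to 5.73 in the other 13. The 7 were resting 1-year replicate 5, exercised 1-year replicates 3 and 4, resting 3-year replicate 3 and exercised 3-year replicates 1, 2 and 5. Summed exocrine pancreas markers ranged from 12.5 to 125400 plain CPM. Summed hepatocyte markers had a median of 131600 plain CPM in the 7 and 205200 in the 13. Counts of called members, and some medians and single genes, are therefore also given without these 7 libraries. Calls of markers, the other gene lists, the ratios and the remaining gene estimates are given with all 20 libraries only. In whole liver, fewer cells of a type and less RNA per cell cannot be told apart.

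The 35 genes together took from 1.49% to 11.7% of all counts of a library. Their share had a median of 3.14% (range 1.505% to 6.36%) in resting and 2.54% (1.49% to 2.98%) in exercised 1-year livers. At 3 years the median was 6.07% (3.92% to 6.78%) in resting and 4.70% (2.35% to 11.7%) in exercised livers. The groups overlapped in this share, except that all 5 resting 3-year libraries lay above all 5 exercised 1-year libraries. The highest share belonged to exercised 3-year replicate 4 and the lowest to exercised 1-year replicate 4.

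Levels can be compared between genes only per length, as RPKM (reads scaled by gene length and, anew here, by each library's own total). The most abundant member was c3a.1, a C3 gene, at 2839 ± 1848 RPKM (mean ± SD, n = 20). It was followed by c9, the pore-forming last component, at 2251 ± 1481 RPKM. Next in the order of mean RPKM stood cfb, the protease of the alternative convertase, at 1498 ± 1004, cfhl4, a factor H-like gene, at 1345 ± 633, and serping1, the C1 inhibitor, at 1004 ± 522. These SDs are as wide as the steps between neighbours. They hold spread that members share within a library, so they do not settle the order of adjacent genes. Within each of the 20 libraries c9 exceeded cfb in plain CPM, with implied lengths of 2345 and 2433 bases. In the classical arm c1r led with 341 ± 187 RPKM. The gene model behind its RPKM implies only 643 bases, which makes its value per length uncertain. MASP2 led the lectin arm at 142 ± 43.9 RPKM. At the low end, c6.1 was at 1.39 ± 1.02, c3a.5 at 1.36 ± 1.51 and cfp at 1.18 ± 0.991 RPKM.

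**Figure D1:**
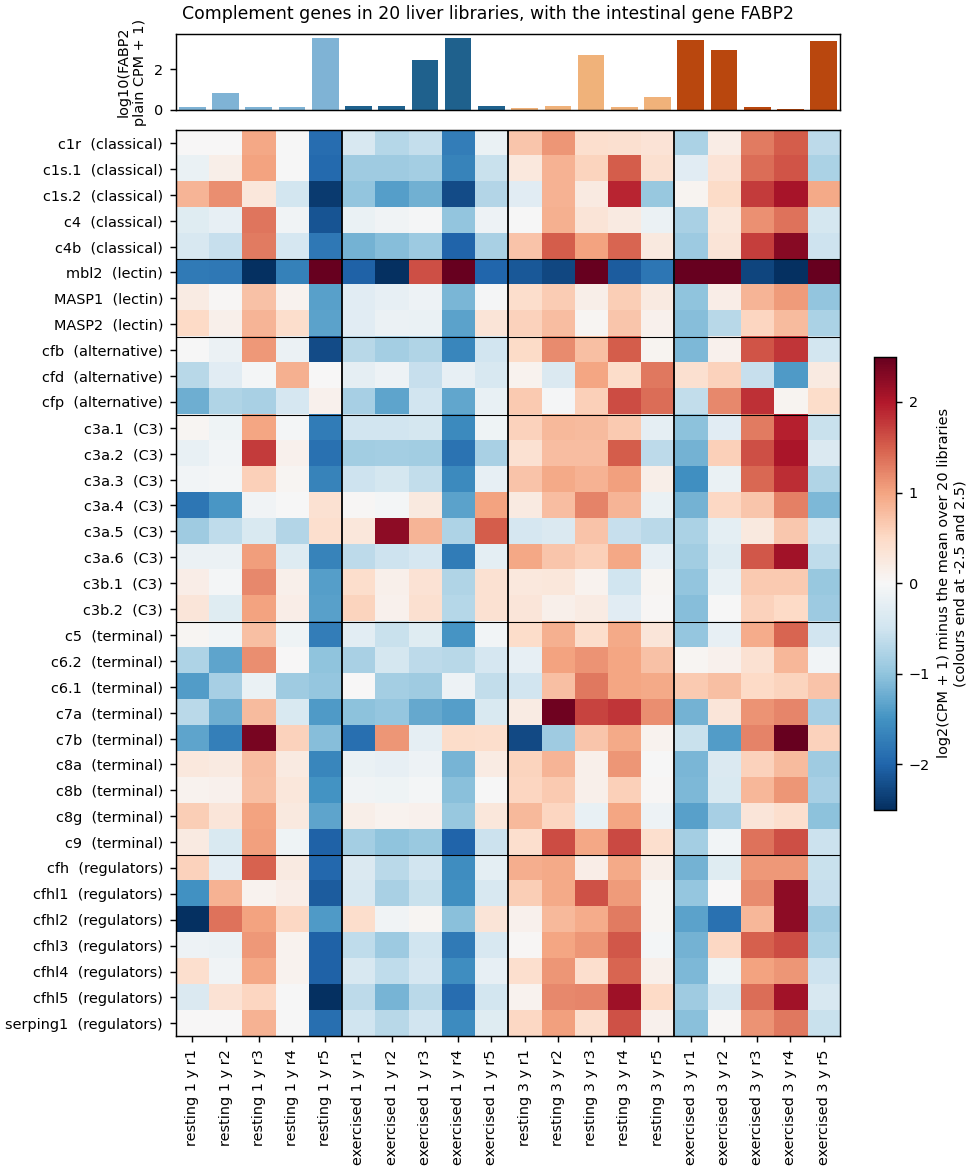
Level of each of 35 complement genes (rows, by arm) in each of 20 liver libraries (columns, by group; r is the replicate) as log2(CPM + 1) minus the gene's mean over the 20 libraries. Bars on top give FABP2 on a log10(plain CPM + 1) scale: resting 1-year replicate 5 and exercised 1-year replicate 4 are blue in most rows and high in FABP2, exercised 3-year replicate 4 is red in most rows, and mbl2 follows the FABP2 bars.

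Members of the list were called for age. Averaged over exercise, 11 of the 35 genes were higher at 3 years than at 1 year and 0 were lower, by edgeR's quasi-likelihood test with Benjamini-Hochberg adjustment over 18079 genes and a threshold of 0.05. Of all genes tested, 12.4% were called in this comparison, and 5.4% were called higher. The 35 had a median log2 fold change of 0.89, against 0.04 over all genes, and 30 of 35 estimates were positive. The called genes were c4b, c1s.1 and c1s.2 of the classical arm, cfb and cfp of the alternative arm, c6.1, c6.2, c7a and c9 of the terminal pathway and the factor H-like genes cfhl1 and cfhl5. No lectin gene (0 of 3) and no C3 gene (0 of 8) was called. All 35 genes passed the filter on low counts.

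The count depended on single libraries. It was 4 without exercised 3-year replicate 4, 6 without exercised 1-year replicate 2, and 7 without resting 1-year replicate 4, exercised 1-year replicate 3, resting 3-year replicate 4 or exercised 3-year replicate 3. Of all genes, 10.7% were called without exercised 1-year replicate 2 and 9.99% without resting 1-year replicate 4. The share was 9.23% without exercised 1-year replicate 3 and 11.9% without resting 3-year replicate 4, against 12.4% with all 20 libraries. Shares without exercised 3-year replicates 3 and 4 are not given here. The count of members was 15 without resting 1-year replicate 3 (12.5% of all genes) and 15 without exercised 3-year replicate 1 (10.2%). The genes c4b, cfp, c6.1 and c7a were called in each of the 20 fits that left out 1 library. Without the 7 libraries with intestinal reads 18 members were called higher, 9 of them among the 11, while 8% of all genes were called. That fit kept 4 resting and 3 exercised 1-year and 4 resting and 2 exercised 3-year libraries. The 2 were replicates 3 and 4, which had the highest member shares of all 20 libraries, 8.77% and 11.7%. Without the libraries with prss1, a pancreatic trypsin gene, above 1000 plain CPM, which left 2 resting and 1 exercised 1-year and 2 resting and 3 exercised 3-year libraries, 0 members and 0% of all genes were called in any of the 7 comparisons.

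Within the resting fish 1 of 35 genes was called for age, c6.1, where 3.5% of all genes were called and 1.23% were called higher. The members' median log2 fold change was 0.56, against -0.01 over all genes, and it was 0.94 without resting 1-year replicate 3. Positive estimates were found for 31 of 35 members and for 48.9% of all genes. An unadjusted p under 0.05 was found for 5 members and for 17.1% of all genes, so that the members' count was no higher than that share. Within the exercised fish 5 of 35 were called higher, c1s.2, cfp, c4b, c6.1 and c1s.1, where 9.17% of all genes were called and 3.91% were called higher. Here the median was 1.105, against 0.08 over all genes, and 19 members had an unadjusted p under 0.05, as did 25.3% of all genes. The libraries of the ages did not overlap for 3 members in exercised fish (c1s.2, c6.1 and c6.2, all higher, against 3.95% of all genes) and for 0 members in resting fish (against 1.86% higher). Without the libraries with intestinal reads, 0 members were called at rest and 12 in exercised fish, of which 2 (c4b and c1s.1) were among the 5. In those fits 2.4% of all genes were called at rest and 2.41% in exercised fish. The 12 calls rest on 3 exercised 1-year and 2 exercised 3-year libraries, the latter being replicates 3 and 4 with the highest member shares. The count at rest was 2 to 3 without any 1 of resting 1-year replicates 3 and 5, resting 3-year replicates 1 and 2, or exercised 3-year replicates 1 and 3. Of all genes, 4.12%, 4.51%, 4.56%, 2.27% and 3.21% were called without the first 5 of these in turn. In exercised fish the count of members was 9 without resting 1-year replicate 5, 1 without exercised 1-year replicate 2, 2 without exercised 1-year replicate 1, 3 or 5 or exercised 3-year replicate 3, and 3 without exercised 3-year replicate 2 or 4. Of all genes, 11.7% were called without resting 1-year replicate 5 and 6.46% without exercised 1-year replicate 2. Without exercised 1-year replicates 1, 3 and 5 in turn, 5.6%, 4.7% and 5.19% were called. Shares without exercised 3-year replicates 2, 3 and 4 are not given here.

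Markers of other cell types moved in the same comparisons. Of 22 tested macrophage markers, 10 were called higher at 3 years averaged over exercise (median log2 fold change 1.08), 13 in exercised fish (median 1.62) and 0 at rest (median 0.35). Of all genes, 5.4%, 3.91% and 1.23% were called higher in these comparisons. The summed level of the macrophage markers was 373 to 1382 plain CPM in resting and 339 to 856 in exercised 1-year livers. At 3 years it was 563 to 1168 in resting and 1046 to 2636 in exercised livers. No macrophage marker of the 25 measured was at 0 in every library, and 5 were at 0 in some. Of 16 hepatocyte markers, 0 were called for age averaged over exercise (median 0.07). None was called at rest (median 0.34, 12 positive) or in exercised fish (median -0.18, 4 positive) either. Of 9 lymphocyte markers, 1 was called higher for age averaged over exercise (median 0.72), 2 in exercised fish (median 2.07) and 0 at rest (median -0.23). Their summed level in exercised fish was 2.90 to 27.1 plain CPM at 1 year and 53.6 to 89.6 at 3 years, so these groups did not overlap. In resting fish it was 5.39 to 90.01 and 9.33 to 47.2. The marker ighm held 80.4 of 89.6 plain CPM of the sum in exercised 3-year replicate 3 and 44.9 of 65.1 in replicate 1. The split of the sums in exercised fish therefore need not hold for the other lymphocyte markers. Of 15 skeletal muscle markers 0 were called, but all 15 estimates for age in exercised fish were positive (median 2.99) and 11 had an unadjusted p under 0.05. Of all genes, 55.0% were positive there and 25.3% had an unadjusted p under 0.05. The summed level of the muscle markers was 9.497 to 63.8 plain CPM in exercised 1-year and 24.0 to 618.5 in exercised 3-year livers. In the resting livers it was 20.6 to 297 and 8.72 to 312. No lymphocyte marker of 12 measured and no muscle marker of 15 was at 0 in every library, and 4 and 5 were at 0 in some. In the 7 libraries with intestinal reads the summed levels had medians of 1382 (macrophage), 53.6 (lymphocyte) and 58.0 (muscle) plain CPM. In the other 13 these medians were 563, 13.4 and 21.05 plain CPM. Of the 7 libraries, 3 were exercised 3-year and 2 exercised 1-year libraries, so age and intestinal reads both enter these ranges. The part of these cell types in the complement results was not tested.

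**Figure D2:**
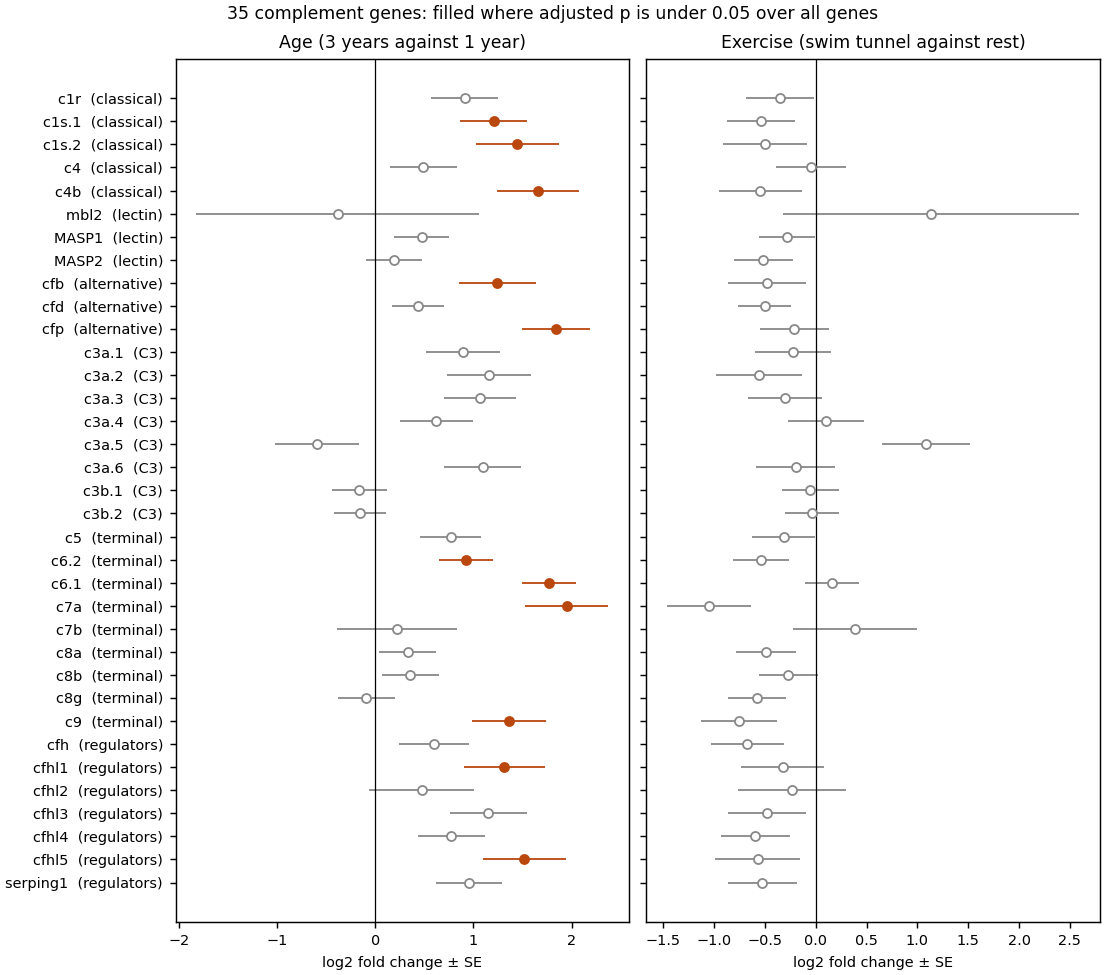
Log2 fold change with its standard error for each of 35 complement genes (rows, by arm), for age averaged over exercise on the left and exercise averaged over ages on the right; filled points have an adjusted p under 0.05 over all genes. The 11 filled points all lie right of 0 in the age panel, and 30 of 35 points lie left of 0, none filled, in the exercise panel.

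The classical arm held the proteases c1r, c1s.1 (ENSDARG00000100599) and c1s.2 (ENSDARG00000102094) of the first complex. It also held the genes c4 and c4b, which encode C4, a substrate of that complex. Levels of c4b in replicates 1 to 5 were 1015, 894, 3284, 1001 and 383 CPM in resting and 589, 636, 706, 331 and 756 CPM in exercised 1-year fish. At 3 years c4b was at 2190.5, 3796, 2657, 3646 and 1568 CPM in resting and 711, 1674, 4409, 6475 and 933 CPM in exercised fish. Every resting 3-year value of c4b exceeded 4 of the 5 resting 1-year values, and replicate 3 of the resting 1-year group stood apart from its group. In exercised fish the ages overlapped only through exercised 3-year replicate 1, one of the libraries with intestinal reads. For c4b (ENSDARG00000038424) the log2 fold change for age was 1.65 ± 0.42 (edgeR adjusted p = 0.0145) averaged over exercise, 1.08 ± 0.58 (edgeR adjusted p = 0.369) at rest and 2.23 ± 0.60 (edgeR adjusted p = 0.0266) in exercised fish. Its paralog c4 had 0.49 ± 0.34 (edgeR adjusted p = 0.394).

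Levels of c1s.2 in replicates 1 to 5 were 179, 223, 121, 72.0 and 18.1 CPM in resting and 49.4, 37.7, 42.4, 20.3 and 58.8 CPM in exercised 1-year fish. At 3 years c1s.2 was at 80.9, 182, 116, 373 and 50.5 CPM in resting and 103, 138, 334, 416 and 193 CPM in exercised fish. All 5 exercised 3-year values of c1s.2 lay above all 5 exercised 1-year values, while the resting groups overlapped. For c1s.2 the log2 fold change was 1.45 ± 0.42 (edgeR adjusted p = 0.0304) averaged over exercise and 2.51 ± 0.62 (edgeR adjusted p = 0.0175) in exercised fish. At rest it was 0.39 ± 0.58 (edgeR adjusted p = 0.806), and without the libraries with intestinal reads the averaged comparison was no longer called (edgeR adjusted p = 0.0522).

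Levels of c1s.1 in replicates 1 to 5 were 78.7, 97.2, 177, 87.5 and 22.1 CPM in resting and 47.0, 47.0, 48.3, 27.03 and 59.4 CPM in exercised 1-year fish. At 3 years c1s.1 was at 105, 161, 130.1, 254 and 117 CPM in resting and 72.3, 112, 233, 266 and 50.8 CPM in exercised fish. The exercised 3-year values of c1s.1 overlapped the exercised 1-year values only through replicate 5 of the older group. For c1s.1 the log2 fold change was 1.21 ± 0.34 (edgeR adjusted p = 0.0256) averaged over exercise and 1.68 ± 0.48 (edgeR adjusted p = 0.0361) in exercised fish. Values of c1r in replicates 1 to 5 were 192, 192, 376, 189.9 and 50.6 CPM in resting and 145, 116, 126, 57.3 and 169 CPM in exercised 1-year fish. At 3 years c1r was at 310.5, 409, 254, 252 and 243 CPM in resting and 110.5, 217, 473, 551 and 121 CPM in exercised fish. The highest and the lowest value of c1r both came from libraries that are extreme for most members, exercised 3-year replicate 4 and resting 1-year replicate 5. The change of c1r with age, 0.91 ± 0.34 (edgeR adjusted p = 0.0854), did not pass. It was called with library totals as the only scaling and with limma-trend on RPKM. The same held with the intestine marker level as a covariate and without the libraries with intestinal reads. In the RefSeq gene table of assembly GRCz12tu, c1s.2 and c1r are direct neighbours.

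The lectin arm held the mannose-binding lectin gene mbl2 (ENSDARG00000068220) and the proteases MASP1 and MASP2. None of the 3 was called for age in the edgeR fit described above. Levels of MASP2 in replicates 1 to 5 were 531, 410.4, 675, 504 and 147 CPM in resting and 306, 337, 335, 147 and 468 CPM in exercised 1-year fish. At 3 years MASP2 was at 559, 641, 387, 606 and 405 CPM in resting and 178, 231, 542, 644 and 216 CPM in exercised fish. The 4 groups of MASP2 overlapped throughout. MASP2, which cleaves C4 in this arm, had a log2 fold change of 0.19 ± 0.29 (edgeR adjusted p = 0.736) with age. MASP1 had 0.47 ± 0.28 (edgeR adjusted p = 0.3). Without the libraries with intestinal reads MASP1 was called higher averaged over exercise (8% of all genes) and in exercised fish (2.41%). That fit held only 2 exercised 3-year libraries. With the intestine marker level as a covariate MASP1 was called higher averaged over exercise (18.4% of all genes).

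The level of mbl2 split by intestinal reads. Levels of mbl2 in replicates 1 to 5 were 1.30, 1.26, 0.305, 1.41 and 278 CPM in resting and 0.930, 0.355, 22.9, 189 and 0.977 CPM in exercised 1-year fish. At 3 years mbl2 was at 0.792, 0.607, 71.6, 0.842 and 1.24 CPM in resting and 178, 158, 0.600, 0.205 and 137 CPM in exercised fish. It stood at 22.2 to 387 plain CPM in the 7 libraries with intestinal reads and at 0.194 to 1.30 in the other 13. Of the 35 members, mbl2 was the only 1 whose ranges in the 7 and the 13 did not overlap. The share of all genes with such a split was not determined. It lies in the GRCz12tu gene table between hbl4 and hbl2, which encode hexose-binding lectins. The neighbour hbl2 showed the same split, 3.77 to 35.5 against 0.274 to 1.90 plain CPM, whereas hbl4 was at 19.2 to 144 against 34.2 to 106. The genes mbl2 and hbl2, and the comparison of the 7 with the 13 libraries, were picked after their values were seen. For mbl2 the fitted log2 fold change of exercise at 3 years, 2.66 ± 2.17 (edgeR adjusted p = 0.517) sets 3 libraries with intestinal reads among 5 against 1 among 5. As similar copies, these lectin genes may share reads.

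Other members tended to be lower in the libraries with intestinal reads. For 26 of 35 the median was lower in the 7 than in the 13. The share of all genes with a lower median was not determined, so this count has no background beside it. Among the 11 genes called for age the median was higher in the 7 for c6.1 (7.38 against 2.38 plain CPM) and cfp (8.14 against 4.24). It was also higher for c6.2 (26.7 against 16.2) and c1s.2 (129 against 99.6), and lower for the remaining called genes. The level of c3a.1 was 4851 to 23830 plain CPM (median 8782) in the 7 and 7903 to 44690 (median 11910) in the 13. For c8b the medians were 309.9 and 427 plain CPM. The groups are unevenly represented in the 7 libraries, so these ranges also hold the differences between groups.

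**Figure D3:**
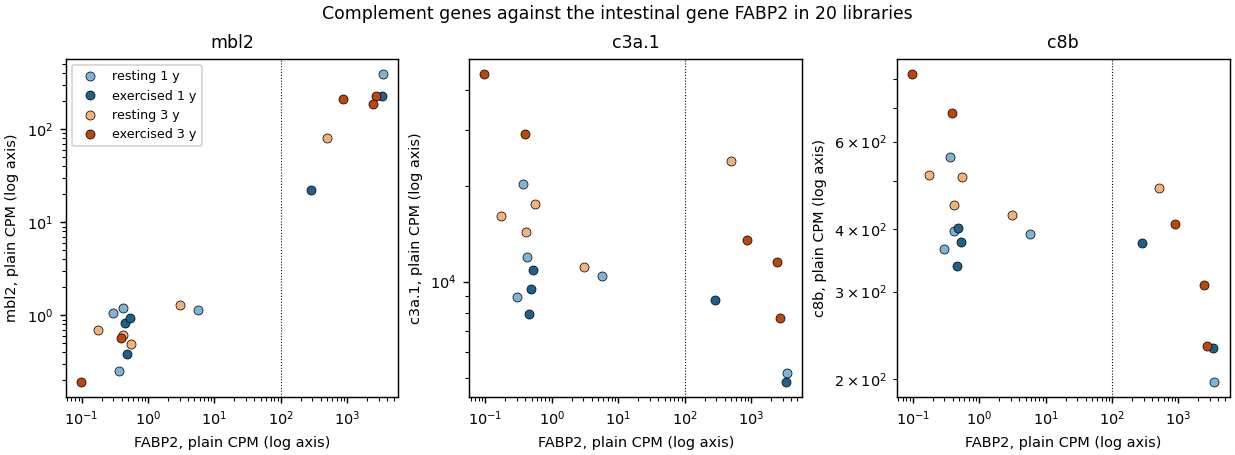
Plain CPM of mbl2, c3a.1 and c8b (vertical, log axis) against FABP2 (horizontal, log axis) in 20 libraries coloured by group; the dotted line is 100 CPM of FABP2. The 7 libraries right of the line have mbl2 at 22.2 CPM or more and the other 13 at 1.30 or less, while c3a.1 and c8b overlap between the sides.

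In the alternative arm 2 of 3 genes were called higher with age averaged over exercise. Factor B, cfb (ENSDARG00000055278), is the protease that joins C3b in the alternative convertase. Levels of cfb in replicates 1 to 5 were 2951, 2684, 6272, 2669 and 628 CPM in resting and 1848, 1642, 1769.6, 957 and 2130.2 CPM in exercised 1-year fish. At 3 years cfb was at 4153, 6731, 5037, 8507 and 3111 CPM in resting and 1367, 3214, 8808, 10272 and 2154 CPM in exercised fish. The resting 1-year value of replicate 3 exceeded 3 of the 5 resting 3-year values, and in exercised fish 1-year and 3-year values overlapped through replicate 1 of the older group. For cfb the log2 fold change was 1.24 ± 0.39 (edgeR adjusted p = 0.0445) averaged over exercise. That call was kept in 15 alternative fits, which include those without 1 library, and lost in 16.

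Properdin, cfp (ENSDARG00000094451), stabilises that convertase and is made in mammals largely by leukocytes. Levels of cfp in replicates 1 to 5 were 1.72, 2.80, 2.63, 3.77 and 5.84 CPM in resting and 2.61, 1.56, 3.56, 1.59 and 4.58 CPM in exercised 1-year fish. At 3 years cfp was at 9.08, 5.28, 8.60, 18.8 and 15.8 CPM in resting and 3.16, 13.7, 21.6, 5.73 and 7.79 CPM in exercised fish. In resting fish all 3-year values of cfp but replicate 2 exceeded every 1-year value, and in exercised fish all but replicate 1 did. Its log2 fold change was 1.84 ± 0.35 (edgeR adjusted p = 0.00257) averaged over exercise, 1.90 ± 0.49 (edgeR adjusted p = 0.0226) in exercised fish and 1.78 ± 0.49 (edgeR adjusted p = 0.0534) at rest. The third gene, cfd, encodes the protease that cleaves factor B and had 0.43 ± 0.26 (edgeR adjusted p = 0.309). Its group means were 62.9 ± 28.6 and 48.3 ± 5.99 CPM in resting and exercised fish of 1 year and 92.5 ± 42.6 and 60.0 ± 28.4 CPM at 3 years (SD, n = 5).

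Of the 8 genes of C3, the protein cleaved in every arm, 0 were called for age in the edgeR fit described above. Levels of c3a.1 in replicates 1 to 5 were 12757, 11451, 24486, 11915 and 3692 CPM in resting and 8834, 8814, 9050.1, 4068 and 11465 CPM in exercised 1-year fish. At 3 years c3a.1 was at 18310, 21748, 21470, 19395 and 10621 CPM in resting and 6060.5, 10136, 30269, 47188 and 8395 CPM in exercised fish. All groups of c3a.1 overlapped, although 4 of the 5 resting 3-year values exceeded 4 of the 5 resting 1-year values. For c3a.1 (ENSDARG00000012694) the log2 fold change with age was 0.89 ± 0.38 (edgeR adjusted p = 0.132). Estimates for c3a.2, c3a.3 and c3a.6 were 1.16 ± 0.43, 1.07 ± 0.37 and 1.09 ± 0.39 (edgeR adjusted p = 0.0852, 0.0656 and 0.0747). The linked pair c3b.1 and c3b.2 had -0.16 ± 0.28 and -0.15 ± 0.27 (edgeR adjusted p = 0.779 and 0.777). Without the libraries with intestinal reads c3a.1, c3a.3 and c3a.6 were called higher with age, with adjusted p of 0.0267, 0.00539 and 0.0172 by edgeR. That fit held only 2 exercised 3-year libraries, replicates 3 and 4, which had the highest c3a.1 levels of all libraries. On all 20 libraries DESeq2 called c3a.2, c3a.3 and c3a.6 higher averaged over exercise (15.1% of all genes). Scaling by library totals only called the same 3 (7.73%), and limma-trend on RPKM called c3a.2 and c3a.6 (8.22% and 8.58%). The intestine marker level as a covariate gave calls of c3a.1, c3a.2, c3a.3 and c3a.6 (18.4%).

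Among the C3 genes c3a.1 held 69.4% ± 2.84 of the summed C3 RPKM (SD, n = 20), and its share differed little between groups, from 68.5% in exercised 3-year to 71.0% in exercised 1-year fish. The gene c3a.2 held 12.8%, c3a.6 8.22%, c3a.3 5.51%, c3b.2 2.06% and c3b.1 1.66%. The remaining genes c3a.4 and c3a.5 held 0.267% and 0.0461%. In the GRCz12tu gene table c3a.6, c3a.5 and c3a.1 follow each other directly, as do c3a.2 and c3a.3, and c3b.2 and c3b.1. Values of single copies are uncertain where near-identical copies share reads.

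The scarce c3a.5 (ENSDARG00000053462) had its highest values in exercised 1-year fish. Levels of c3a.5 in replicates 1 to 5 were 0.875, 1.23, 1.66, 1.097 and 3.66 CPM in resting and 3.21, 15.3, 5.29, 1.03 and 8.85 CPM in exercised 1-year fish. At 3 years c3a.5 was at 1.58, 1.71, 4.66, 1.33 and 1.16 CPM in resting and 1.00, 1.93, 3.13, 4.50 and 1.51 CPM in exercised fish. Exercised 1-year replicates 2 and 5 held the highest values, and exercised 1-year replicates 1 and 4 lay within the resting 1-year range. For c3a.5 exercise at 1 year had a log2 fold change of 1.97 ± 0.62 (edgeR adjusted p = 0.105), which did not pass. It was called higher with DESeq2 (DESeq2 adjusted p = 0.0214), and with edgeR without the libraries with intestinal reads (adjusted p = 0.0221) or without either resting 1-year replicate 5 or exercised 1-year replicate 4. Its median count per library was 69.0.

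**Figure D4:**
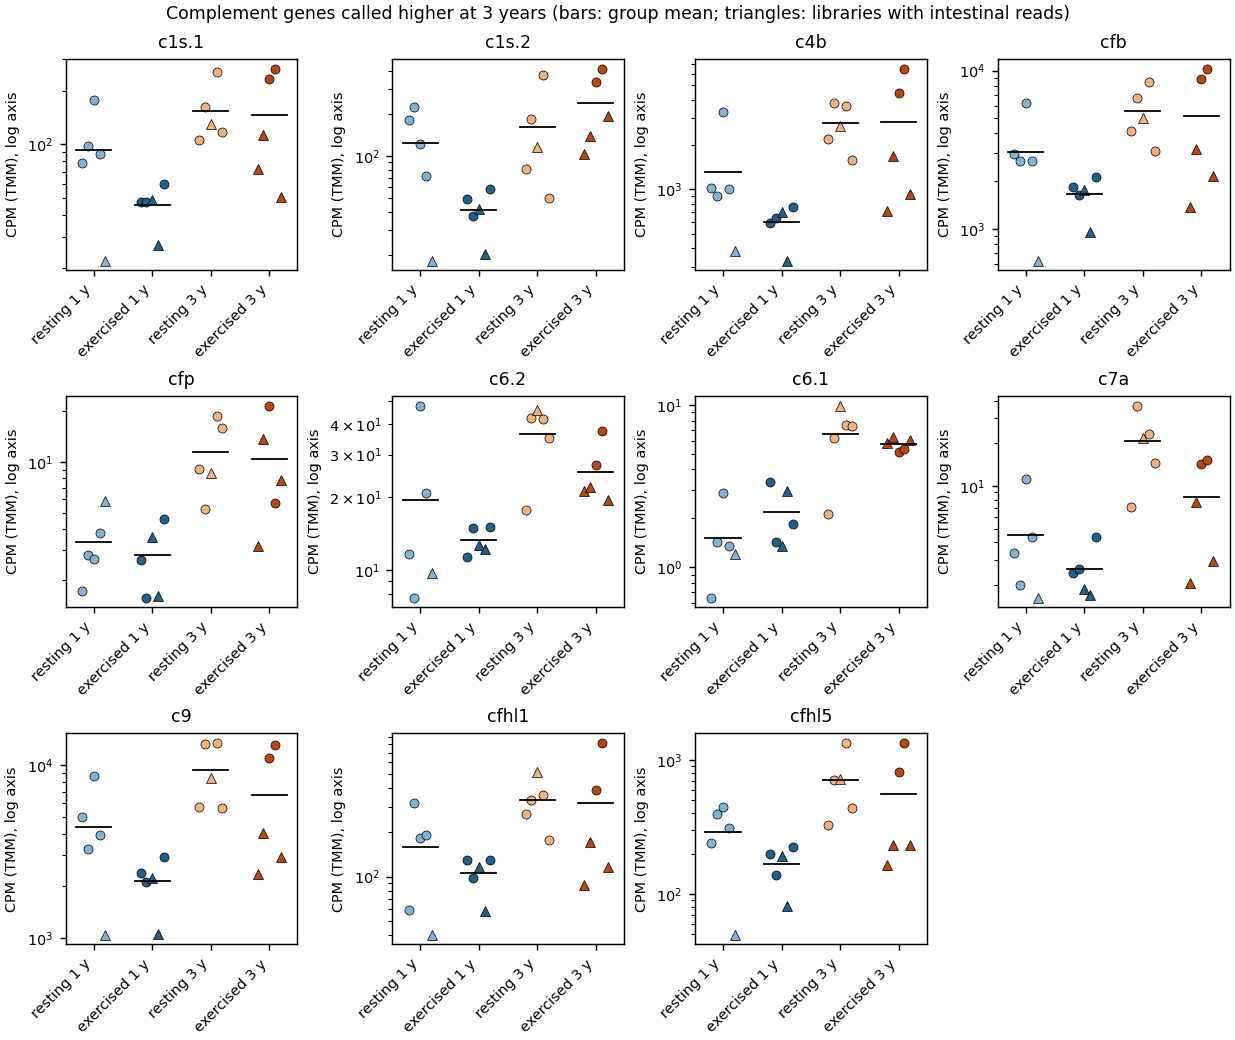
CPM with TMM scaling (vertical, log axis) of the 11 complement genes called higher at 3 years, in each of 5 libraries of 4 groups; bars are group means and triangles are libraries with intestinal reads. For c6.1, c6.2 and c1s.2 every exercised 3-year library lies above every exercised 1-year library, and for the other 8 genes the lowest 3-year point is a triangle.

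The terminal pathway held 4 of the 11 genes that were called higher with age. The gene c9 (ENSDARG00000016319) encodes the component that polymerises into the pore. Levels of c9 in replicates 1 to 5 were 4966, 3246, 8606, 3936 and 1046 CPM in resting and 2359.6, 2103, 2223, 1060.5 and 2946 CPM in exercised 1-year fish. At 3 years c9 was at 5695, 13240, 8337, 13382 and 5658 CPM in resting and 2356, 4055, 10935, 12961 and 2921 CPM in exercised fish. The resting 3-year values of c9 all exceeded 4 of the 5 resting 1-year values, and in exercised fish the overlap came from replicates 1 and 5 of the older group. For c9 the log2 fold change was 1.36 ± 0.38 (edgeR adjusted p = 0.0245) averaged over exercise, with 1.09 ± 0.53 at rest and 1.64 ± 0.54 in exercised fish, neither of them called (edgeR adjusted p = 0.305 and 0.0639).

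The c6 genes c6.1 (ENSDARG00000093052) and c6.2 (ENSDARG00000057113) were low in the liver. Levels of c6.1 in replicates 1 to 5 were 0.648, 1.44, 2.88, 1.35 and 1.204 CPM in resting and 3.36, 1.42, 1.35, 2.94 and 1.84 CPM in exercised 1-year fish. At 3 years c6.1 was at 2.11, 6.28, 9.88, 7.54 and 7.39 CPM in resting and 5.81, 6.35, 5.15, 5.34 and 6.099 CPM in exercised fish. At rest c6.1 overlapped only where resting 3-year replicate 1 lay under resting 1-year replicate 3, and in exercised fish the ages did not overlap. For c6.1 the log2 fold change was 1.77 ± 0.27 (edgeR adjusted p = 0.000648) averaged over exercise, 2.14 ± 0.39 (edgeR adjusted p = 0.00588) at rest and 1.396 ± 0.38 (edgeR adjusted p = 0.0291) in exercised fish. Without the libraries with intestinal reads the comparison at rest was not called (edgeR adjusted p = 0.0696), while the averaged comparison was (adjusted p = 0.0345).

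Levels of c6.2 in replicates 1 to 5 were 11.7, 7.72, 47.7, 20.8 and 9.74 CPM in resting and 11.4, 15.01, 12.7, 12.3 and 15.1 CPM in exercised 1-year fish. At 3 years c6.2 was at 17.8, 42.3, 45.9, 42.1 and 35.1 CPM in resting and 21.2, 22.1, 27.2, 37.5 and 19.5 CPM in exercised fish. The exercised 3-year values of c6.2 all lay above the exercised 1-year values, and resting 1-year replicate 3 lay above the whole resting 3-year group. For c6.2 the log2 fold change was 0.92 ± 0.28 (edgeR adjusted p = 0.0368) averaged over exercise. It was not called without the libraries with intestinal reads (edgeR adjusted p = 0.176). The call of c6.2 was kept in 15 alternative fits, which include those without 1 library, and lost in 16.

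Among the c7 genes, c7a (ENSDARG00000042172) was called and c7b was not. Levels of c7a in replicates 1 to 5 were 3.37, 2.01, 11.2, 4.36 and 1.63 CPM in resting and 2.43, 2.58, 1.89, 1.69 and 4.35 CPM in exercised 1-year fish. At 3 years c7a was at 7.10, 36.8, 21.7, 23.2 and 14.5 CPM in resting and 2.06, 7.65, 14.2, 15.2 and 2.96 CPM in exercised fish. All resting 3-year values of c7a but that of replicate 1 exceeded the highest resting 1-year value, and exercised 3-year replicates 1 and 5 lay within the 1-year range. For c7a the log2 fold change was 1.95 ± 0.43 (edgeR adjusted p = 0.00635) averaged over exercise, 2.196 ± 0.61 (edgeR adjusted p = 0.0526) at rest and 1.70 ± 0.60 (edgeR adjusted p = 0.0822) in exercised fish. It also had the smallest p of the members for exercise at 3 years, -1.30 ± 0.59 (edgeR adjusted p = 0.283), which did not pass. The gene c7b varied more widely, from 13.6 to 494 CPM over the 20 libraries, and had 0.22 ± 0.61 (edgeR adjusted p = 0.872) with age. The genes c7b and c6.2 are neighbours in the GRCz12tu gene table.

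The remaining terminal genes were not called in the edgeR fit described above. The gene c5 encodes the component whose cleavage starts the pore and had 0.77 ± 0.31 (edgeR adjusted p = 0.117). It was called higher with library totals as the only scaling and with limma-trend on RPKM. The same held with the intestine marker level as a covariate and without the libraries with intestinal reads. The chains of C8 had 0.33 ± 0.29 (edgeR adjusted p = 0.526) for c8a, 0.36 ± 0.29 (edgeR adjusted p = 0.48) for c8b and -0.09 ± 0.29 (edgeR adjusted p = 0.889) for c8g. Their means in resting 1-year and resting 3-year fish were 432 ± 193 and 533 ± 104 CPM for c8b (SD, n = 5).

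Of the 7 regulators 2 were called higher with age averaged over exercise. Both are factor H-like genes, whose roles in zebrafish are not stated in the sources used here. Levels of cfhl5 in replicates 1 to 5 were 238, 396, 447, 308 and 49.5 CPM in resting and 197, 137, 192, 81.5 and 224 CPM in exercised 1-year fish. At 3 years cfhl5 was at 329, 709, 719.8, 1342 and 436 CPM in resting and 165, 233, 817, 1331 and 233 CPM in exercised fish. Resting 3-year replicates 2, 3 and 4 of cfhl5 exceeded every resting 1-year value, and in exercised fish only replicate 1 of the older group lay within the 1-year range. For cfhl5 (ENSDARG00000105052) the log2 fold change was 1.52 ± 0.43 (edgeR adjusted p = 0.0258) averaged over exercise.

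Levels of cfhl1 in replicates 1 to 5 were 59.6, 317, 184, 194 and 40.2 CPM in resting and 130.4, 97.3, 117, 58.5 and 130.1 CPM in exercised 1-year fish. At 3 years cfhl1 was at 266, 333, 519, 363 and 179 CPM in resting and 87.6, 173, 389.9, 816 and 116 CPM in exercised fish. The groups of cfhl1 overlapped at both ages, and the highest value belonged to exercised 3-year replicate 4. For cfhl1 (ENSDARG00000105212) the log2 fold change was 1.32 ± 0.41 (edgeR adjusted p = 0.045) averaged over exercise. That call was kept in 14 alternative fits, which include those without 1 library, and lost in 17. Values of cfhl4 in replicates 1 to 5 were 3348, 2361, 4919.7, 2682 and 619 CPM in resting and 1898, 1622, 1871, 857 and 2173 CPM in exercised 1-year fish. At 3 years cfhl4 was at 3376, 5386, 3358, 6876 and 2756 CPM in resting and 1157, 2344, 5086, 5419 and 1748 CPM in exercised fish. The ages of cfhl4, the most abundant regulator per length, overlapped both at rest and in exercised fish.

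For cfhl4 the log2 fold change with age was 0.77 ± 0.34 (edgeR adjusted p = 0.15). Factor H itself, cfh, which breaks down C3 convertases on host surfaces in mammals, had 0.60 ± 0.36 (edgeR adjusted p = 0.303). The C1 inhibitor serping1 had 0.96 ± 0.34 (edgeR adjusted p = 0.0736), cfhl3 1.15 ± 0.39 (edgeR adjusted p = 0.0624) and cfhl2 0.47 ± 0.53 (edgeR adjusted p = 0.634). DESeq2 called serping1 and cfhl3 higher with age averaged over exercise, where it called 15.1% of all genes. In the GRCz12tu gene table cfhl5, cfhl4, cfh, cfhl1, cfhl2 and cfhl3 stand in 1 uninterrupted row, and copies that share reads make their single values uncertain.

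Ratios of members within a library do not depend on how the library is scaled. The pairs were chosen after the fold changes had been seen, so the ratios are given without a test. The RPKM ratio of c4b to c4 was 2.38, 1.95, 2.48, 2.02 and 3.27 in replicates 1 to 5 of resting and 1.25, 1.29, 1.36, 1.25 and 1.57 of exercised 1-year fish. At 3 years the ratio was 4.22, 3.89, 4.04, 5.97 and 3.30 in resting and 2.38, 2.60, 3.80, 4.81 and 2.42 in exercised fish. All 5 resting 3-year ratios lay above all 5 resting 1-year ratios, and the exercised 1-year ratios lay under those of every other group.

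The RPKM ratio of c9 to c8b had means of 9.23 ± 2.43 at rest and 5.94 ± 0.763 after exercise at 1 year, and of 16.7 ± 5.04 and 13.5 ± 1.17 at 3 years (SD, n = 5). The exercised 3-year ratios all lay above the exercised 1-year ratios. For c3a.1 to c3b.1 the means were 40.3 ± 3.09 and 27.7 ± 3.53 at 1 year and 67.6 ± 23.6 and 65.9 ± 27.8 at 3 years, with all exercised 1-year ratios under all resting 1-year ratios. By contrast the ratio of c8a to c8b, chains of 1 protein, stayed between 1.45 and 2.54 over the 20 libraries. The ratio of c8g, another chain of that protein, to c8b was 1.34 to 1.96 in resting and 1.45 to 1.68 in exercised 1-year fish. At 3 years it was 1.095 to 1.775 in resting and 0.845 to 1.18 in exercised fish. All exercised 3-year ratios of c8g to c8b thus lay under all 1-year ratios.

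**Figure D5:**
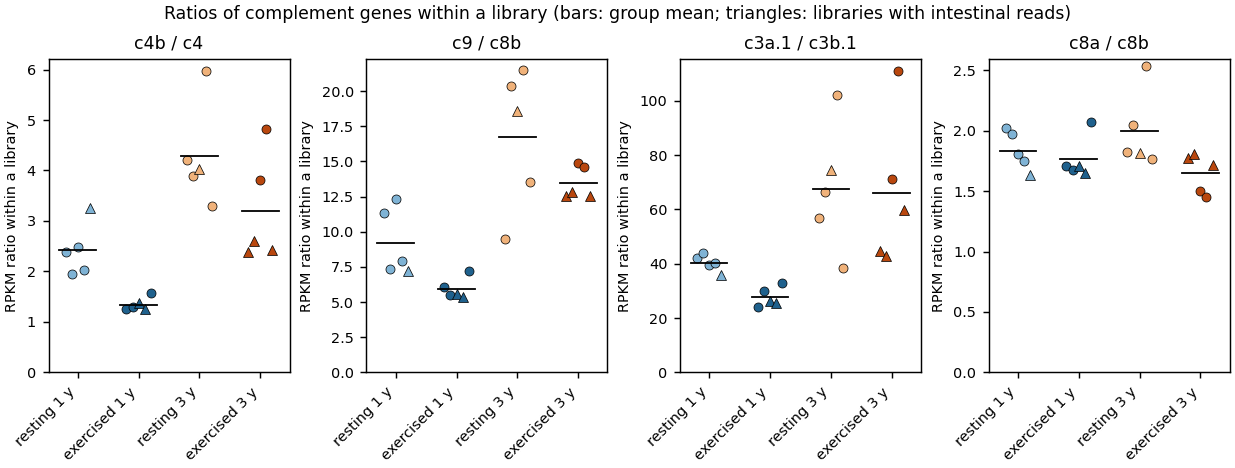
RPKM ratio within a library (vertical, from 0) of c4b to c4, c9 to c8b, c3a.1 to c3b.1 and c8a to c8b in each of 5 libraries of 4 groups; bars are group means and triangles are libraries with intestinal reads. The first ratio is lowest in exercised 1-year fish, at 1.25 to 1.57, and the c8a to c8b ratio stays between 1.45 and 2.54.

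By edgeR on all 20 libraries, none of the 35 members was called for exercise. At 1 year 0 of 35 were called, where 2.85% of all genes were called. DESeq2 called 1 member, c3a.5, and 6.18% of all genes. An unadjusted p under 0.05 in edgeR was found for 4 members and for 14.8% of all genes, so that the members' count was no higher than that share. The 4 were c3a.5, c1s.2, c3a.2 and c1s.1. Exercised livers had the lower estimate for 31 of 35 members, with a median log2 fold change of -0.54 against -0.04 over all genes. Hepatocyte markers also had mostly negative estimates there, 13 of 16, with a median of -0.22. The members' median was -0.32 without resting 1-year replicate 3. Estimates for c1s.2, c3a.2 and c1s.1 were -1.56 ± 0.60, -1.38 ± 0.61 and -1.01 ± 0.48 (edgeR adjusted p = 0.204, 0.291 and 0.327). For c4b and c9 they were -1.12 ± 0.58 and -1.03 ± 0.53 (edgeR adjusted p = 0.389 and 0.389).

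At 3 years 0 of 35 members were called for exercise by edgeR and 0 by DESeq2, and 1 had an unadjusted p under 0.05 in edgeR (c7a), as did 16.3% of all genes. Of all genes, edgeR called 0% and DESeq2 2.58%. The median was -0.12, and its sign turned with the scaling: with library totals in place of TMM it was 0.13, as the median of all genes moved by 0.35. Without the libraries with intestinal reads, which left 4 resting and 2 exercised 3-year libraries, it was 0.54. Averaged over ages 0 members were called by edgeR, where 1.95% of all genes were called, with 2 unadjusted p under 0.05 (c3a.5 and c7a, against 16.5% of all genes), 0 calls by DESeq2 (5.74% of all genes) and a median of -0.35. This median was -0.21 without resting 1-year replicate 3, -0.63 without exercised 3-year replicate 4 and -0.07 without the libraries with intestinal reads. Without the libraries with intestinal reads 1 member was called in the average, c3a.5, where 0.0331% of all genes were called. With all 20 libraries, 15 of 16 hepatocyte markers had a negative estimate for exercise at 3 years (median -0.75). In the average over ages 15 were negative as well (median -0.52). The effect of exercise was not shown to differ between the ages for any member: edgeR and DESeq2 called 0 of 35 for the interaction, where edgeR called 0.979% and DESeq2 2.94% of all genes. There 1 member had an unadjusted p under 0.05, c1s.2 (against 14.5% of all genes), at 2.12 ± 0.83 (edgeR adjusted p = 0.261).

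Of a list of complement and related genes outside the member list, 24 were tested. The list covers C1q chains, receptors, surface and fluid regulators, lectins and other proteases or components, among them f2 and PLG. Averaged over exercise 4 of 24 were higher and 1 lower with age, where 5.4% of all genes were called higher and 6.95% lower. In exercised fish 4 were higher and 2 lower, where 3.91% of all genes were called higher and 5.25% lower, so the lower counts are near the background. At rest 0 of the 24 were called for age, where 3.5% of all genes were called. The C1q chains, which recognise bound antibody and are products of macrophages, were among those that rose averaged over exercise. They also stand in the macrophage marker list, so the counts of the 2 lists share these genes. Levels of c1qa in replicates 1 to 5 were 3.99, 4.71, 5.57, 2.87 and 7.48 CPM in resting and 1.53, 1.66, 1.75, 2.96 and 1.12 CPM in exercised 1-year fish. At 3 years c1qa was at 3.53, 5.54, 7.62, 9.23 and 6.70 CPM in resting and 5.85, 12.4, 7.55, 6.95 and 7.69 CPM in exercised fish. In exercised fish every 3-year value of c1qa exceeded every 1-year value, while the resting groups overlapped, at 2.87 to 7.48 and 3.53 to 9.23 CPM. For c1qa, c1qb and c1qc the log2 fold change with age was 1.28 ± 0.22, 1.18 ± 0.27 and 1.17 ± 0.19 averaged over exercise (edgeR adjusted p = 0.00122, 0.00812 and 0.00101). The integrin beta chain itgb2, shared by leukocyte complement receptors, had 1.00 ± 0.20 (edgeR adjusted p = 0.00386). The gene rca2.2 of the regulator of complement activation cluster was lower, at -0.60 ± 0.15 (edgeR adjusted p = 0.0165), and in exercised fish C1QBP was lower as well, at -0.57 ± 0.17 (edgeR adjusted p = 0.0391). With exercise at 1 year, c1qa and c1qc were the 2 called, lower at -1.44 ± 0.31 and -1.26 ± 0.27 (edgeR adjusted p = 0.017 and 0.0181, with 1.47% of all genes called lower). Of the 22 tested macrophage markers, which include these genes, 21 had a negative estimate there (median -0.64, against -0.04 over all genes). With exercise at 3 years 0 of the 24 were called by edgeR (3 with an unadjusted p under 0.05), against 0% of all genes.

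A list of cytokines, signalling proteins and transcription factors known to act on liver complement genes had 24 tested members. Averaged over exercise 3 of 24 were higher and 1 lower with age, where 5.4% of all genes were called higher and 6.95% lower. The higher ones were nfkbiaa, an inhibitor of NF-kB, at 1.27 ± 0.35 (edgeR adjusted p = 0.023), NR1H4, the bile acid receptor, at 0.47 ± 0.11 (edgeR adjusted p = 0.00916), and the cytokine gene tnfa at 2.32 ± 0.74 (edgeR adjusted p = 0.0474). The mean level of tnfa was under 1 CPM in every group. In exercised fish 3 were higher and 1 lower with age, where 3.91% and 5.25% of all genes were. The higher ones were nfkbiaa, nfkb2 and jak2a, at 2.06 ± 0.50, 1.14 ± 0.31 and 0.58 ± 0.18 (edgeR adjusted p = 0.0171, 0.0276 and 0.0467). At rest only NR1H4 was called, higher at 0.70 ± 0.15 (edgeR adjusted p = 0.0183). For exercise averaged over ages 2 of 24 were lower, where 0.951% of all genes were called lower. NR1H4 was 1 of them, at -0.47 ± 0.11 (edgeR adjusted p = 0.0331).

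Single libraries carried much of the spread, since members moved together within a library. Resting 1-year replicate 3 was the highest of its group for 27 of 35 members and replicate 5 the lowest for 26. In exercised 1-year fish replicate 5 was the highest for 25 and replicate 4 the lowest for 29. In resting 3-year fish replicate 4 was the highest for 17 and replicate 5 the lowest for 21. Exercised 3-year replicate 4 was the highest of its group for 29 members and of all 20 libraries for 18, and replicate 1 was the lowest of its group for 28. The lowest library of 3 of the 4 groups was one with intestinal reads, and exercised 3-year replicate 4 had 0.0969 plain CPM of FABP2.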

How the data were processed

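The deposited counts are whole-number reads per gene as the authors made them, with no normalization. The submitters' processing notes name bcl2fastq 1.8.4, STAR 2.4.1d, featureCounts 1.4.6-p4 and build GRCz10. The library kit, TruSeq v2 per the labels' protocols, does not mark strand, so reads of overlapping and antisense genes are not separable. How reads that match several similar genes were handled is not stated in the notes used. The authors also deposited RPKM, which divide counts by gene length and by library totals that, tested on the tables, belong to other libraries. They were rescaled here to each library's own total and used for levels between genes, for ratios and for an alternative.

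Counts were tested with edgeR 4.0.16 in R 4.3.3. The filter filterByExpr left 18079 genes, scaling was by TMM, and 1 model of 4 group means over all 20 samples had no covariate. Each of 7 contrasts used the quasi-likelihood F-test with Benjamini-Hochberg adjustment over all genes, a gene being called at an adjusted p under 0.05. Standard errors were derived from the F statistic. CPM are counts scaled to a common library total with TMM, and plain CPM use the library total only. Log2 fold changes came from the fit at edgeR's default settings. A prior count of 2 was used for the log2 CPM behind the intestine marker level. DESeq2 1.42.0 and limma 3.58.1 served as alternatives, and the test script was checked on simulated counts.

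The members and gene lists were chosen with earlier results of these data known. Members are named with every value where called in any contrast, highest per length in their arm, or of smallest p in a single contrast, and others are given by group or range. Replicates were numbered in sample order. Symbols come from a gene name table, which named 26269 genes (81.82%), and neighbouring genes from the RefSeq table of GRCz12tu. That build differs from GRCz10, so no coordinates are given. Counts over the list of factors that act on complement genes include a gene that is not reported here.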

Additional observations from a re-analysis of the deposited data

Results flagged for a closer look

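Within a group of 5 libraries, a value was marked when its gap to the nearest other value exceeded 0.71 of the group's range. Of 64 groups looked at, 4 had such a library. Chance marks about 1 in 20, so this count is near that rate. Resting 1-year replicate 3 stood far above its group for c4b, at 3284 CPM against 383 to 1015 in the other 4 libraries. The same library stood apart for c7a, at 11.2 CPM against 1.63 to 4.36. For c3a.5, resting 1-year replicate 5 was at 3.66 CPM against 0.875 to 1.66 in the other 4. Resting 3-year replicate 3 was at 4.66 CPM of c3a.5 against 1.16 to 1.71. The last 2 are libraries with intestinal reads, whose part in these values was not tested.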

How the results depend on the processing

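Counts of called members moved by over 1.5 times as follows, and the cause was not tested. Percentages in brackets are the share of all genes called in the same fit. For age averaged over exercise (11, 12.4%), scaling by library totals gave 18 (7.73%) and leaving out the libraries with intestinal reads 18 (8%). The intestine marker level as a covariate gave 22 (18.4%). Limma-trend gave 17 on log2(RPKM + 1) (8.22%) and 17 on log2(RPKM + 0.1) (8.58%). For age in exercised fish (5, 9.17%), library totals gave 10 (4.93%), leaving out intestinal libraries 12 (2.41%) and the covariate 20 (13%). DESeq2 gave 12 (13.1%) and limma-voom 3 (9.13%). For age at rest (1, 3.5%), library totals gave 2 (2.11%), leaving out intestinal libraries 0 (2.4%) and the covariate 5 (6.69%). The RPKM fits gave 2 (2.14%) and 2 (2.12%), limma-voom 2 (3.26%) and DESeq2 3 (6.77%). The stricter filter on low counts gave 3 (5.18%) and a fit of the 2 groups alone 0 (0.882%). For exercise at 1 year (0, 2.85%), DESeq2 gave 1 (6.18%) and leaving out the intestinal libraries 1 (1.02%). Leaving out the intestinal libraries also gave 1 (0.0331%) for exercise averaged over ages (0, 1.95%). The fits without pancreatic libraries were added after the data had been seen and left 1 exercised 1-year library, assumed to vary like the other groups.

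Leaving out 1 library at a time gave 4 to 15 calls for age averaged over exercise, 1 to 9 in exercised fish, 1 to 3 at rest and 0 to 1 for exercise at 1 year. The share of all genes called moved as well. For age averaged over exercise it was 9.13% without resting 1-year replicate 1 and 17.4% without resting 1-year replicate 5. The members' median log2 fold change for exercise at 1 year, -0.54, was -0.34 with the intestine covariate, -0.21 and -0.20 by the RPKM fits and -1.03 without pancreatic libraries. That for exercise averaged over ages, -0.35, was -0.21, -0.16 and -0.15 in the first 3 of these and -0.15 with library totals, and that for age at rest, 0.56, was 0.15 without pancreatic libraries. For exercise at 3 years it turned from -0.12 to 0.13 with library totals, 0.54 without intestinal and 0.42 without pancreatic libraries, and ranged from -0.503 to 0.0832 without 1 library. The median of the interaction turned from 0.30 to -0.0772 with limma-voom and ranged from -0.0330 to 0.54 without 1 library. Each called member kept its direction in every alternative. Of their values, 266 stayed called and 74 did not without 1 library, and 163 and 30 under the others. With library totals the median of all genes shifted by 0.20 for age in exercised fish, 0.35 for exercise at 3 years, 0.21 for exercise averaged over ages and 0.27 for the interaction.

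No paired analysis was possible because replicates are numbered only by sample order. Low members such as c3a.5, c6.1 and c7a rest on few reads, and near-identical copies cannot be separated further.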
